A study of Homo sapiens with 18 samples.

Results

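EGR2, ZNF503 and ZNF703 are 3 zinc finger transcription factor genes of the early hindbrain, and they were found by symbol as 3 of the 37550 rows of a table of length-scaled transcript abundances (TPM) for 18 RNA libraries. They were chosen by their measured TPM over all 9 groups of the study, so every level and difference given for these 3 genes is a description and carries no test. Tests are given only for other genes. The libraries came from H1, an established line of wild-type human pluripotent stem cells, with 2 replicates in each group.

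The undifferentiated cells (hPSC) were collected at day 0. All other cells spent day 1 in a definitive ectoderm medium with A8301 at 1 µM, trametinib at 250 nM, C59 at 1 µM and LDN193189 at 100 nM, which inhibit TGF-beta receptors, MEK, WNT ligand secretion and BMP receptors. On day 2, cells became either anterior neural ectoderm (aNE) in A8301 at 1 µM, LDN193189 at 100 nM and C59 at 1 µM, or posterior neural ectoderm (pNE). The pNE medium kept A8301 and LDN193189 at those doses. In place of C59 it held XAV939 (1 µM), which inhibits tankyrase and so WNT signalling, together with FGF2 (20 ng/mL) and TTNPB (50 nM), an agonist of retinoic acid receptors. The ROCK inhibitor thiazovivin was present for both origins on day 2. Cells of either origin were then carried to day 4 in a forebrain medium (aNE_T, pNE_T), a midbrain medium (aNE_M, pNE_M) or a hindbrain medium (aNE_H, pNE_H). On day 3 the forebrain medium held XAV939 at 1 µM, LDN193189 at 100 nM and FGF2 at 20 ng/mL. What the other day-4 media held is not used here. For day-2 collection both origins were plated at 37500 cells per cm2, but for day 4 aNE was plated at 75000 and pNE at 150000 cells per cm2, so origin and plating density cannot be told apart at day 4. All libraries are from 1 cell line, and the labels used here do not say whether replicates were separate cultures. The p-values therefore measure only the spread between these libraries.

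The embryonic hindbrain is divided into segments called rhombomeres. EGR2, also called KROX20, is switched on in rhombomeres 3 and 5, where it sets segment identity and drives genes such as HOXA2, HOXB2 and EPHA4. Its inputs include HOXB1, MEIS and PBX factors and FGF signals. EGR2 is also known as an immediate early gene, a class that responds quickly to growth factor signals, and as a regulator of myelination in Schwann cells. ZNF503 (NLZ2) and ZNF703 (NLZ1) form the small NLZ family, transcriptional repressors that work with Groucho/TLE corepressors and histone deacetylases. In fish embryos the NLZ genes limit segment gene expression around rhombomere 4.

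In RefSeq on GRCh38.p14, EGR2 lies on chromosome 10 from 62811996 to 62819167 on the minus strand. ZNF503 lies on the same chromosome from 75279725 to 75401916, also on the minus strand. The antisense genes ZNF503-AS1 and ZNF503-AS2 both overlap the span of ZNF503 and were not analysed here. Whether the quantification used strand is not given in the sources used here. The RefSeq promoter table held 3 starts for EGR2, 2 for ZNF503 and 0 for ZNF703, of 35116 in all. The 250 bases before 1 start of each of the first 2 genes are shown because EGR2 belongs to a family with a well-known serum response element, the CArG box, whose match is in capitals. The EGR2 window is chr10:62816367-62816616 and the ZNF503 window is chr10:75401917-75402166, both on the minus strand and written 5′ to 3′.
EGR2: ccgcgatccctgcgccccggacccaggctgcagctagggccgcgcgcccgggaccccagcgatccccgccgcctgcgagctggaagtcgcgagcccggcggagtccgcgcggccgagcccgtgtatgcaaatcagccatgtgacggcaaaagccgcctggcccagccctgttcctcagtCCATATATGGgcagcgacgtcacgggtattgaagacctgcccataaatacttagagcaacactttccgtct
ZNF503: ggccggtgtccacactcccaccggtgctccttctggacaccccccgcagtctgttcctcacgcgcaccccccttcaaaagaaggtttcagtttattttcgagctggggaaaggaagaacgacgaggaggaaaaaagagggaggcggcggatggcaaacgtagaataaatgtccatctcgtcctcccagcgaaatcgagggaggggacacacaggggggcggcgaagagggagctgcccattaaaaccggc
The EGR2 window was 66.0% GC and held 1 CArG box, 71 to 62 bases before the start. It was the 1 window of the 3 for EGR2 with a match, and the other two had none. That motif, searched on both strands, was found in 1.16% of the 35116 windows of this length. The ZNF503 window was 58.4% GC and had no match to it. A direct repeat of a retinoic acid half-site with 5 free bases was searched as AGGTCA with AGGTCA and as AGTTCA with AGTTCA. It matched none of the 5 windows of these 2 genes on either strand. Of all windows, 0.00285% (AGGTCA) and 0.00854% (AGTTCA) held it. Mixed pairs and other half-sites were not searched. Searches for the remaining motifs, among them EGR, HOX-PBX and MEIS sites, matched none of the 5 windows either. Of all windows, 0.72% and 4.72% held the 2 EGR forms, 6.47% the HOX-PBX site and 13.0% the MEIS site. A match here is a string of letters, not a measured binding site. On GENCODE transcripts, ZNF503 and ZNF703 shared no run of 31 bases, so short reads from these family members can be told apart.

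**Figure D1:**
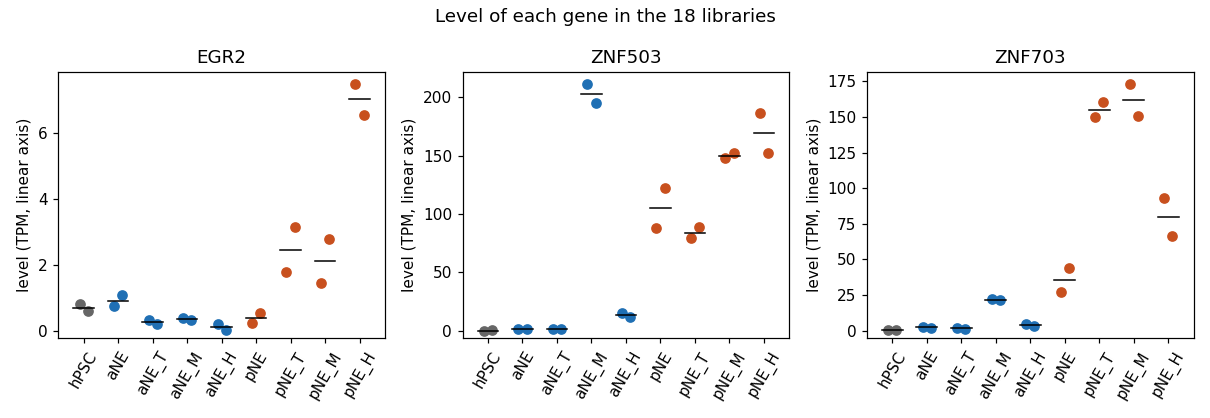
Level of EGR2, ZNF503 and ZNF703 (TPM, linear axis, a separate scale for each gene) in each of the 18 libraries; points are libraries and bars are means of 2. EGR2 peaks in the pNE_H libraries at 6.54 and 7.47 TPM, ZNF503 in aNE_M at 195 and 211 TPM, and ZNF703 in pNE_M and pNE_T.

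The rhombomere gene EGR2 was near the floor in most groups and stood out in posterior cells given hindbrain medium. Its levels were 0.792 and 0.589 TPM in the 2 hPSC libraries, 0.734 and 1.09 TPM in aNE, and 0.244 and 0.534 TPM in pNE. At day 4 it was 1.77 and 3.14 TPM in pNE_T, 1.45 and 2.79 TPM in pNE_M, and 7.47 and 6.54 TPM in pNE_H. In cells of anterior origin it was 0.318 and 0.204 TPM in aNE_T, 0.369 and 0.315 TPM in aNE_M, and 0.202 and 0.0320 TPM in aNE_H. Both pNE_H libraries were thus above every other library, and all 6 posterior day-4 libraries were above all 12 others. How many of all genes separate the libraries in this way was not counted. Hindbrain medium gave the highest EGR2 group of the study from posterior cells (7.004 ± 0.656 TPM, SD, n = 2), whereas anterior cells in that medium had 0.117 ± 0.120 TPM (SD, n = 2), an SD as large as the mean.

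In order, the EGR2 group means were aNE_H 0.117, aNE_T 0.261, aNE_M 0.342, pNE 0.389, hPSC 0.691, aNE 0.910, pNE_M 2.12, pNE_T 2.45 and pNE_H 7.004 TPM. Levels under 1 TPM in this order cannot be ranked firmly. Neighbours whose libraries overlapped were aNE_T with aNE_M, aNE_M with pNE, hPSC with aNE, and pNE_M with pNE_T. EGR2 reached 1 TPM in 7 of the 18 libraries and in both libraries of only the 3 posterior day-4 groups. Even at its peak EGR2 was not an abundant transcript: in the 2 pNE_H libraries it stood at the 43.0 and 41.1 percentile of the 17033 tested genes. Tested genes had 1 TPM or more in 2 or more libraries, and EGR2 passed this filter only through the groups in which it was high. In bulk RNA, fewer EGR2-positive cells and less EGR2 RNA per cell cannot be told apart.

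The NLZ gene ZNF503 was close to 0 in stem cells, low in early anterior cells, and abundant in posterior cells and in anterior cells given midbrain medium. It was listed at 0 and 0.0981 TPM in hPSC, 1.04 and 1.43 TPM in aNE, and 88.1 and 122 TPM in pNE. In posterior day-4 cells it was 79.2 and 88.5 TPM in forebrain medium, 148 and 152 TPM in midbrain medium, and 186 and 152 TPM in hindbrain medium. In anterior day-4 cells it was 1.59 and 1.09 TPM in forebrain medium, 211 and 195 TPM in midbrain medium, and 15.3 and 11.9 TPM in hindbrain medium. All 8 posterior libraries were high, and the anterior libraries ranged from 1.04 TPM to the highest level of the study, 211 TPM.

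The ZNF503 means, in order, were hPSC 0.0490, aNE 1.24, aNE_T 1.34, aNE_H 13.6, pNE_T 83.9, pNE 105, pNE_M 149.7, pNE_H 169 and aNE_M 203 TPM. The SDs of the 3 highest were 3.10, 23.9 and 11.5 TPM (n = 2 each). Neighbours aNE with aNE_T and pNE_T with pNE overlapped. The pNE_M and pNE_H libraries came close to touching, at 151.9 and 152.3 TPM. In aNE_M, ZNF503 stood at the 95.9 and 95.5 percentile of tested genes.

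ZNF703, the other NLZ gene, was higher in posterior cells at every stage. Its gene lies on chromosome 8 from 37695782 to 37700019 on the plus strand (RefSeq, GRCh38.p14). It was 0.745 and 0.661 TPM in hPSC, 2.52 and 1.84 TPM in aNE, and 26.8 and 43.7 TPM in pNE. Posterior day-4 cells had 149.8 and 161 TPM in forebrain medium, 173 and 150.5 TPM in midbrain medium, and 93.1 and 66.7 TPM in hindbrain medium. Anterior day-4 cells had 1.89 and 1.07 TPM, 22.3 and 21.4 TPM, and 4.63 and 3.39 TPM in the same 3 media. All 8 posterior libraries lay above all 10 others, with the closest at 26.8 TPM in pNE and 22.3 TPM in aNE_M. The share of all genes with such a separation was not counted.

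The ZNF703 means, in order, were hPSC 0.703, aNE_T 1.48, aNE 2.18, aNE_H 4.01, aNE_M 21.8, pNE 35.2, pNE_H 79.9, pNE_T 155 and pNE_M 162 TPM. Overlapping neighbours were aNE_T with aNE and pNE_T with pNE_M. The highest mean, with an SD of 16.0 TPM, was 230.1 times the lowest. Both NLZ genes reached 1 TPM in 16 of the 18 libraries, the exceptions being hPSC, and passed the filter in 8 groups.

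The step from stem cells to day-2 ectoderm separated the 3 genes. On the log2(TPM + 1) scale, which understates changes of low values, pNE minus hPSC was 6.64 ± 0.172 (SE) for ZNF503 and 4.37 ± 0.231 for ZNF703. For EGR2 it was -0.29 ± 0.247, little more than its SE. For aNE minus hPSC the values were 1.09 for ZNF503, 0.89 for ZNF703 and 0.17 for EGR2, with the same SEs. ZNF503 had the 3rd largest rise of all tested genes from hPSC to pNE, where 12.9% of the 17033 tested genes were called changed. Ranks of the 3 genes come from the levels they were chosen by, so they are descriptions and no test. A call here means an adjusted p under 0.05 (limma, Benjamini-Hochberg) and a log2 difference of at least 1. From hPSC to aNE, 13.5% were called.

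**Figure D2:**
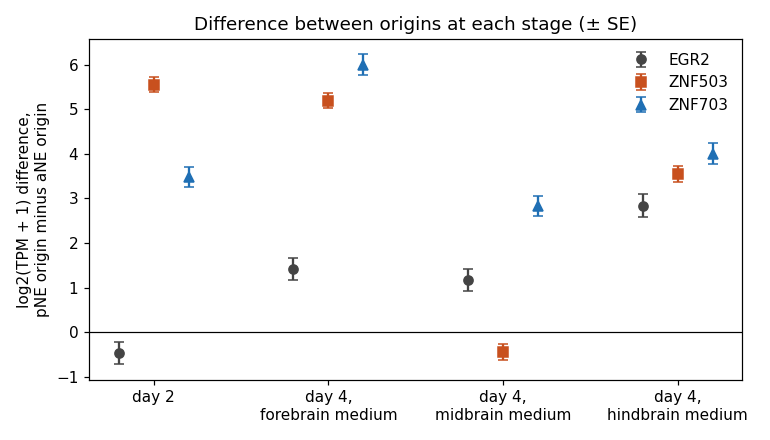
Difference of EGR2, ZNF503 and ZNF703 between cells of posterior and anterior origin (log2(TPM + 1), pNE origin minus aNE origin) at day 2 and in each day-4 medium; error bars are ± SE from limma, n = 2 libraries per group. ZNF703 is above 0 at all 4 stages, ZNF503 falls to -0.44 in midbrain medium, and EGR2 goes from -0.46 at day 2 to 2.84 in hindbrain medium.

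The comparison of origins asks how far posterior and anterior cells of the same stage differ. At day 2 the pNE minus aNE difference was 5.55 for ZNF503 and 3.48 for ZNF703, against -0.46 for EGR2, with SEs of 0.172, 0.231 and 0.247. The TPM means differed 84.8-fold for ZNF503 and 16.2-fold for ZNF703, both higher in posterior cells, while EGR2 was higher in anterior cells at means of 0.910 and 0.389 TPM. At this stage 3.85% of tested genes were called. Counted from the largest rise among tested genes, ZNF503 was 3rd, ZNF703 17th and EGR2 15177th in this comparison. EGR2 was the member with the lower mean in pNE, but both its means were under 1 TPM and cannot be ranked firmly.

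In forebrain medium the difference was 5.997 for ZNF703, 5.19 for ZNF503 and 1.43 for EGR2. The TPM ratios were 105, 62.7 and 9.39, all higher in posterior cells. Of all tested genes, 7.77% were called. In this medium the NLZ genes had means of 1.34 and 1.48 TPM in anterior cells and of 83.9 and 155 TPM in posterior cells. In hindbrain medium ZNF703 differed by 4.004, ZNF503 by 3.55 and EGR2 by 2.84. This order depended on the value added to TPM. With 0.1 in place of 1 the differences were 4.28, 3.63 and 5.15, and EGR2 had the largest. The TPM ratios were 19.9 for ZNF703 and 12.4 for ZNF503. No ratio is given for EGR2, whose 2 aNE_H libraries were at 0.202 and 0.0320 TPM. Here 6.83% of tested genes were called.

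Midbrain medium was the stage at which the 2 NLZ genes parted. ZNF703 was 7.42-fold higher in posterior cells, a log2 difference of 2.83, and EGR2 was 6.20-fold higher, a log2 difference of 1.18. ZNF503 was 1.36-fold higher in anterior cells, a log2 difference of -0.44 ± 0.172. Counted from the largest posterior rise, it was 14889th of the 17033 tested genes. Its 2 aNE_M libraries, at 195 and 211 TPM, lay above both pNE_M libraries. In this comparison 5.74% of tested genes were called.

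From day 2 to day 4 the anterior cells gained NLZ transcripts mainly in midbrain medium. ZNF503 was higher by 6.52 in aNE_M than in aNE, a TPM ratio of 164, and this was the 7th largest rise among tested genes, of which 12% were called. In aNE_H it was higher by 2.70, a ratio of 10.997, with 10.1% of genes called. In aNE_T it differed by 0.06, less than its SE of 0.172, with 9.03% of genes called. ZNF703 followed the same order at a smaller size, with 2.85 in midbrain, 0.65 in hindbrain and -0.37 in forebrain medium (SE 0.231). EGR2 was lower in all 3 anterior day-4 groups than in aNE, by -0.50 in midbrain, -0.59 in forebrain and -0.77 in hindbrain medium (SE 0.247). All of these EGR2 means were under 1 TPM, where levels cannot be ranked firmly.

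In posterior cells the same interval looked different for each gene. EGR2 was higher than in pNE by 1.29 in forebrain, 1.14 in midbrain and 2.53 in hindbrain medium. ZNF703 was higher by 2.15, 2.20 and 1.18 in the same media. ZNF503, already high at day 2, moved little, by -0.30, 0.53 and 0.70. The shares of tested genes called were 10.2%, 12.7% and 12.3%. All 3 genes had their highest posterior levels after day 2, and ZNF503 was already at 105 TPM in pNE at day 2.

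In posterior cells ZNF503 was higher and ZNF703 lower in hindbrain than in forebrain medium. Against forebrain medium, pNE_H was higher by 1.24 for EGR2 and 1.00 for ZNF503, and differed by -0.97 for ZNF703, in a comparison with 5.03% of genes called. Against midbrain medium, the values were 1.39, 0.17 and -1.02, with 5.99% called. The EGR2 and ZNF703 libraries did not overlap in either comparison. Those of ZNF503 did not either, but came close against midbrain medium, at 152.3 and 151.9 TPM. How many of all genes show no overlap was not counted. Midbrain against forebrain medium gave -0.15 for EGR2, 0.83 for ZNF503 and 0.06 for ZNF703, with 8.6% called. In anterior cells midbrain medium was above forebrain medium by 6.45 for ZNF503 and 3.22 for ZNF703, with 10.1% called. Anterior hindbrain medium differed from anterior midbrain medium by -3.81 and -2.20 for the same pair, with 4.92% called, and from forebrain medium by 2.64 and 1.02, with 6.6% called.

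**Figure D3:**
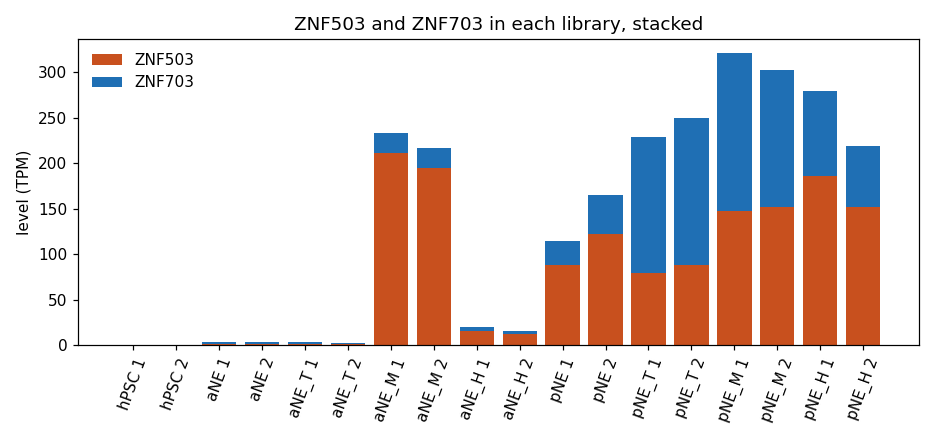
Level of ZNF503 and ZNF703 (TPM, linear axis from 0), stacked for each of the 18 libraries. The aNE_M bars are almost all ZNF503, while in the pNE_T bars ZNF703 is the larger part; hPSC, aNE and aNE_T bars are close to 0.

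The balance of the NLZ pair depended on both origin and medium. TPM is per transcript length, so the levels of these 2 genes can be set side by side. ZNF503 made up 90.3 ± 0.238% (SD, n = 2) of the summed NLZ level in aNE_M and 77.3 ± 0.665% in aNE_H. It made up 75.1 ± 2.21% in pNE, then 35.0 ± 0.635% in pNE_T, 48.1 ± 2.98% in pNE_M and 68.1 ± 2.04% in pNE_H. The summed level was 225 ± 12.1 TPM in aNE_M, 239 ± 14.4 TPM in pNE_T and 249 ± 42.6 TPM in pNE_H, so groups with sums within each other's spread differed in which member carried it. The highest sum, 312 ± 12.9 TPM, was in pNE_M, and the anterior groups aNE and aNE_T had 3.42 and 2.82 TPM.

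Across the 9 group means, on the log2(TPM + 1) scale, Pearson's r was 0.900 between ZNF503 and ZNF703, 0.644 between EGR2 and ZNF703, and 0.436 between EGR2 and ZNF503. These are descriptions of 9 points that share libraries and media. By the same measure over 12451 genes with a symbol and a highest group mean of at least 5 TPM, the genes most like EGR2 were CHRNA3 (0.954), SLC8A3 (0.948), NPY1R (0.946), SLC4A4 (0.941) and FZD4 (0.937). CHRNA3, a nicotinic receptor subunit, was 53.4 ± 2.35 TPM in pNE_H, 14.8 in pNE_T and 13.5 in pNE_M, and at most 5.46 TPM in the other groups. FZD4, a Frizzled receptor for WNT and norrin, was 40.4 ± 2.18 TPM in pNE_H, 23.1 in pNE_T and 14.7 in pNE_M.

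The genes most like ZNF503 were EPHB3 (0.972), TMEM135 (0.929), LIPG (0.926), MVK (0.915) and STRA6 (0.913). EPHB3, an ephrin receptor, shared the aNE_M peak, with 29.02 ± 5.80 TPM there, 24.0 and 29.4 TPM in the pNE_H libraries and 2.52 ± 0.845 in aNE. STRA6, the cell surface receptor for retinol-binding protein, was 687 ± 73.4 TPM in pNE_M, 149 ± 4.10 in aNE_M and 10.7 ± 0.0519 in aNE_T. The genes most like ZNF703 were RBM20 (0.953), GPC6 (0.945), KCNJ4 (0.943), GREB1 (0.942) and KITLG (0.940). KITLG, the ligand of the KIT receptor, was 28.8 ± 2.46 TPM in pNE_M and 6.12 ± 0.217 in aNE. Over the 18 libraries r was 0.932 for CHRNA3 with EGR2, 0.961 for EPHB3 with ZNF503 and 0.951 for RBM20 with ZNF703. High values follow from the choice, because the genes were picked on means of these same libraries. Spearman's rho with EGR2 over the 9 group means was 0.75 for CHRNA3, 0.483 for SLC8A3 and 0.967 for NPY1R. It was 0.833 for SLC4A4 and for FZD4. EPHB3 with ZNF503 gave a rho of 0.983, and RBM20 with ZNF703 gave 0.933.

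**Figure D4:**
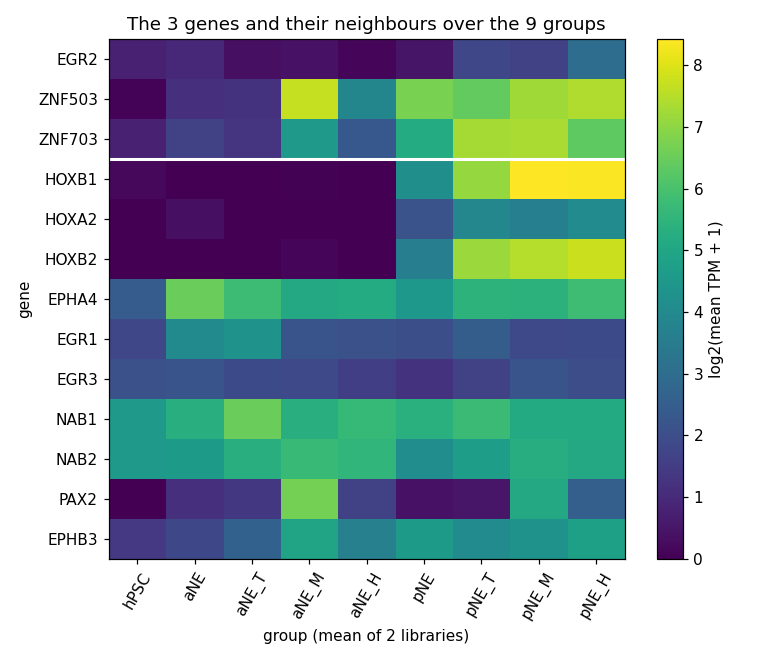
Mean level of the 3 genes and of neighbouring genes (colour, log2(mean TPM + 1)) in the 9 groups of 2 libraries. HOXB1, HOXA2 and HOXB2 are dark in all anterior groups and brighter in posterior ones, and PAX2 is brightest in aNE_M.

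Genes that act upstream of EGR2 were in part higher in posterior cells, and MEIS1 was, like EGR2, highest in pNE_H. Of 12 listed inputs, all tested, 4 rose and 1 fell in pNE against aNE at day 2. In forebrain medium 8 rose and 1 fell, in midbrain medium 5 rose and 2 fell, and in hindbrain medium 8 rose and 2 fell. The shares of all tested genes called were 3.85%, 7.77%, 5.74% and 6.83%. HOXB1, the rhombomere 4 gene, was 17.3 ± 3.05 TPM in pNE, 136 ± 15.1 in pNE_T, 343 ± 4.56 in pNE_M and 330 ± 24.8 in pNE_H, and at most 0.131 TPM elsewhere. HOXB1 was called higher at all 4 stages, with origin differences of 4.19, 7.10, 8.39 and 8.37 at day 2 and in forebrain, midbrain and hindbrain medium (SE 0.133, limma).

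FGF8, a signal made at the midbrain-hindbrain border and in early hindbrain, fell at all 4 stages, with log2 differences of -1.66 at day 2, -4.88 in forebrain, -1.49 in midbrain and -2.90 in hindbrain medium. SP5, a WNT-responsive factor, was 690.3 ± 93.1 TPM in pNE_M and 590 ± 165 in aNE_M, and fell in posterior against anterior cells in hindbrain medium, from 50.9 ± 25.0 TPM in aNE_H to 0.131 ± 0.0571 TPM in pNE_H (adjusted p = 5.02e-07). MEIS1, a HOX cofactor, was 139 ± 15.7 TPM in pNE_H, 76.4 ± 0.374 in pNE_T and 34.0 ± 9.39 in pNE_M, and its difference in hindbrain medium was 5.53 (adjusted p = 1.94e-09).

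The change from day 2 to day 4 was also compared between origins, as an interaction in limma. It was called for 7.14% of tested genes in forebrain, 7.02% in midbrain and 7.83% in hindbrain medium. HOXB1 was among them in all 3 media, with a change larger in posterior cells by 4.18 in hindbrain medium (adjusted p = 1.54e-08).

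Known targets of EGR2 differed in how they compared between origins at a given stage. Of 5 listed targets, HOXA2 and HOXB2 rose in posterior cells at all 4 stages, and HOXB3 rose in the 3 day-4 media. HOXB2 was 212 ± 56.9 TPM in pNE_H, 178 ± 7.69 in pNE_M and 142 ± 5.94 in pNE_T. It was already 11.1 ± 0.885 TPM in pNE, where EGR2 was 0.389 ± 0.205 TPM. HOXA2 was 15.8 ± 0.838 TPM in pNE_H, 13.98 ± 1.35 in pNE_T and 11.4 ± 1.44 in pNE_M. HOX genes lie in dense clusters with antisense transcripts, from which these values may not be separable.

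EPHA4, an ephrin receptor of rhombomeres 3 and 5, was 88.8 ± 1.61 TPM in aNE and 21.8 ± 0.976 TPM in pNE, a difference of -1.98 (limma adjusted p = 1.95e-06). In the day-4 media its differences were -0.35, 0.34 and 0.60 in forebrain, midbrain and hindbrain medium, none called. EPHA4 was 54.7 ± 6.31 TPM in pNE_H, the highest of the posterior groups but below aNE. FST, which encodes follistatin, fell at day 2 and in hindbrain medium, with log2 differences of -1.92 and -1.79. In the change from day 2 to day 4, by contrast, the interaction was called higher in posterior cells for all 5 targets in forebrain and midbrain medium and for 4 in hindbrain medium, FST being the exception there. The shares of all tested genes called were 7.14%, 7.02% and 7.83%. A higher interaction was not always a posterior rise. FST was called lower than at day 2 in both origins in forebrain medium. EPHA4 was called lower than in aNE in anterior midbrain and hindbrain medium, by -1.40 and -1.30. In posterior cells EPHA4 was called higher than in pNE only in hindbrain medium, by 1.29. HOXA2, HOXB2 and HOXB3 were called higher than in pNE in all 3 media.

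The rhombomere HOX genes of paralogue groups 1 to 4 were also mostly higher in posterior cells. Of 12 tested, 5 rose in pNE at day 2, 10 in forebrain, 12 in midbrain and 10 in hindbrain medium, and 0 fell. The inputs, targets and these HOX genes made 24 genes together, leaving out the 3 members. Of them 41.7% were called in either direction at day 2, 70.8% in forebrain, 70.8% in midbrain and 79.2% in hindbrain medium. Beside these, 3.85%, 7.77%, 5.74% and 6.83% of all tested genes were called. Among the 24 genes, 7 rose and 3 fell at day 2, and 16 rose and 1 fell in forebrain medium. In midbrain medium 15 of the 24 rose and 2 fell, and in hindbrain medium 16 rose and 3 fell. Their median differences were 0.53, 2.46, 3.69 and 2.47, against -0.01, -0.05, -0.04 and -0.04 over all tested genes.

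EGR1 and EGR3, relatives of EGR2, did not share its peak in pNE_H. EGR1, the best-known immediate early member of the family, was 15.5 ± 0.257 TPM in aNE and 3.06 ± 0.357 in pNE, and 19.0 ± 1.49 in aNE_T and 4.66 ± 0.363 in pNE_T. It fell in posterior cells at day 2 and in forebrain medium, with log2 differences of -2.03 and -1.82 (limma adjusted p = 2.92e-06 and 3.40e-06). In midbrain and hindbrain medium its differences were -0.35 and -0.21, not called. EGR3 was between 1.34 and 3.54 TPM in all 9 groups. Its highest mean was in pNE_M (3.90 and 3.18 TPM), close to that of aNE (3.95 and 3.11 TPM). The origin differences of EGR3 were under 1 on the log2 scale at all 4 stages. EGR4 did not pass the filter. NAB1 and NAB2, corepressors that bind EGR proteins, each differed by less than 1 on the log2 scale at all 4 stages.

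Immediate early genes, a list that includes EGR1, EGR3 and EGR4, were called in both directions outside forebrain medium. In forebrain medium all calls were lower in posterior cells. Of 10 tested of 12 listed, 1 rose and 1 fell at day 2, 0 rose and 4 fell in forebrain medium, and 1 rose and 1 fell in midbrain and in hindbrain medium. These were 20%, 40%, 20% and 20% of the tested genes of the list, beside 3.85%, 7.77%, 5.74% and 6.83% of all tested genes. EGR1 was the gene that fell at day 2, and it was among the 4 that fell in forebrain medium. JUN, an AP-1 subunit, was 96.2 ± 7.45 TPM in pNE_H and 23.8 ± 3.95 TPM in aNE_H, a difference of 1.98 (limma adjusted p = 2.44e-07). IER3, a survival factor of the class, was 11.1 ± 0.0614 TPM in pNE_H and 44.4 ± 2.20 TPM in aNE_H, a difference of -1.91 (adjusted p = 2.57e-08).

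Genes of the signals named in the day-2 media differed between origins as well. Of 10 feedback genes of FGF-ERK signalling, 9 rose in pNE at day 2, when EGR1 was lower there. The EGR2 mean was lower there too, but it was under 1 TPM in both groups and cannot be ranked firmly. DUSP6, an ERK phosphatase, was 256 ± 25.6 TPM in pNE and 31.4 ± 3.005 TPM in aNE. At day 4 only DUSP4 of this list rose, in each of the 3 media, while SPRY4 and IL17RD fell in forebrain and SPRY4 fell in hindbrain medium. Of 8 retinoid genes, 3 rose at day 2, 5 in forebrain, 5 in midbrain and 4 in hindbrain medium, and 0 fell. Beside both lists, 3.85%, 7.77%, 5.74% and 6.83% of all tested genes were called at the 4 stages. RARB, a retinoic acid receptor that retinoids induce, was 61.2 ± 6.09 TPM in pNE_H, 81.5 ± 5.25 in pNE_T and 4.82 ± 0.480 in pNE_M, and at most 1.18 TPM in anterior groups. ZNF503 was 203 TPM in aNE_M, where RARB was 0.471 ± 0.0907 TPM, and 83.9 TPM in pNE_T, where RARB was 81.5 TPM. Whether retinoid signals act on ZNF503 was not tested.

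The partners of NLZ proteins that were called at day 4 were lower in posterior cells. Of 7 TLE and HDAC genes, 3 fell in forebrain medium, 3 in midbrain and 1 in hindbrain medium. That was 42.9%, 42.9% and 14.3% of the list, beside 7.77%, 5.74% and 6.83% of all tested genes. At day 2 their median difference was -0.26, against -0.01 over all tested genes. TLE5, a short TLE family member, fell in all 3 day-4 media, with log2 differences of -2.54, -1.69 and -1.17. It was 198 ± 3.46 TPM in aNE_T and 33.2 ± 0.0153 TPM in pNE_T. HDAC1 and HDAC2 differed by less than 1 on the log2 scale at all 4 stages.

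Genes of segment borders and of the neighbouring midbrain gave a second view of aNE_M, the group with the highest ZNF503. PAX2, a midbrain-hindbrain border factor, was 101 ± 0.431 TPM in aNE_M and 33.1 ± 0.0634 TPM in pNE_M, a difference of -1.58 (limma adjusted p = 3.32e-05). EN1, another border factor, was 135 ± 9.45 TPM in aNE_M, was listed at 0 in pNE_M, and was at most 0.869 TPM in the other groups. OTX2, which marks forebrain and midbrain, was 149 ± 18.1 TPM in aNE_M and 4.84 ± 0.764 TPM in pNE_M. ZNF503 was within 1.36-fold between these 2 groups. Among 9 ephrins and receptors, 1 rose and 2 fell in pNE at day 2, 2 rose and 1 fell in forebrain medium, 0 rose and 1 fell in midbrain medium, and 1 rose and 1 fell in hindbrain medium. These were 33.3%, 33.3%, 11.1% and 22.2% of the list, beside 3.85%, 7.77%, 5.74% and 6.83% of all tested genes. EPHA4 and EFNA5 fell at day 2, EFNA5 in midbrain medium and EPHA7 in hindbrain medium. EPHB3 rose in pNE by 2.81 at day 2, 1.46 in forebrain and 1.13 in hindbrain medium, and differed by -0.57 in midbrain medium (adjusted p = 0.0835), not called.

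Markers of other cell types were measured beside these results. SOX10, a neural crest and Schwann cell factor, was 14.5 ± 2.51 TPM in pNE_H, its highest level in the 9 groups, and 4.43 ± 0.749 TPM in aNE_H, a difference of 1.51 (limma adjusted p = 0.00014). Of the 12 neural crest and Schwann markers it was the 1 called higher there, and 4 fell, among them TFAP2B, PAX3 and TWIST1. The summed list was 98.9 to 113 TPM in pNE_H and 168 to 170.4 TPM in aNE_H. Of 8 mesoderm markers, 5 passed the filter and MEOX1, TCF15 and FOXC1 rose in hindbrain medium; the summed list was 40.0 to 42.4 TPM in pNE_H and 4.62 to 5.23 TPM in aNE_H. The early mesoderm gene TBXT was listed at 0 in both groups. Of 8 surface ectoderm and placode markers, 2 rose (GATA3 and EYA1) and 2 fell, among them DLX5, in this comparison. Their sum was 1531 to 1729 TPM in pNE_H and 1374 to 1478 TPM in aNE_H. The part of such cells in the EGR2 level was not tested. The pluripotency list summed to 4276 to 4294 TPM in hPSC and 71.2 to 119 TPM at day 4. Of 10 pan-neural genes, SOX3, ZIC1 and SOX21 fell in pNE_H against aNE_H and 0 rose. The summed pan-neural list was 551 to 573 TPM in pNE_H, 646 to 738 TPM in aNE_H and 525 to 536 TPM in hPSC. Calls here covered 41.7% of the crest list, 60% of the mesoderm genes tested, 50% of the placode list and 30% of the pan-neural list. Beside these, 6.83% of all tested genes were called. SOX1 was 0.108 ± 0.0322 TPM in pNE_H and 0.561 ± 0.235 in aNE_H, and PAX6 was 5.39 ± 0.00332 and 3.65 ± 0.307 TPM, neither called (limma adjusted p = 0.103 and 0.149).

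Each library correlated best with its own replicate across tested genes, with r from 0.982 to 0.987. TPM keeps no read number, so the depth is unknown, and no interval from counts can be given for the low EGR2 values. The 2 libraries of pNE_T and of pNE_M differed in EGR2 by 1.77 against 3.14 and 1.45 against 2.79 TPM, which limits the statements on EGR2 in these groups.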

How the data were processed

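RNA of 18 libraries was poly-A selected and primed with random hexamers, per the labels. The authors deposited TPM values, 1 row per gene. The submitters' processing notes name bcl2fastq, FastQC, Trim Galore, kallisto, deepTools and hg38. Annotation and versions are not given in the sources used here. TPM keeps no depth.

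Values were analysed as log2(TPM + 1) for 17033 genes that reached 1 TPM in 2 or more libraries. A limma model (3.58.1, R 4.3.3) with a mean for each group and a variance trend was fitted over the 18 libraries, leaving 9 residual degrees of freedom. P-values were two-sided and adjusted by Benjamini-Hochberg over all tested genes. The script was tested on simulated data. 18 differences between pairs of groups and 3 interactions were computed.

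The 3 members and the gene lists were chosen with earlier results of these data known. Named genes are the members, a set of EGR2 neighbours, up to 3 called genes in each direction per list with the largest origin differences, and the 5 genes most like each member. DUSP4, HDAC1, HDAC2, MEIS1, SOX1 and TBXT were chosen after their values were seen. Replicate numbers were not treated as pairs: deviations of same-numbered libraries correlated between -0.0896 and 0.0762 over 36 pairs of groups. Alternatives were another pseudocount, filter, scaling, call rule and fit, a replicate block, and leaving out each library. A few genes that the rule would name are not reported here, and they stay in the list counts.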

Additional observations from a re-analysis of the deposited data

Results flagged for a closer look

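Several genes changed differently from day 2 to day 4 in cells of posterior and anterior origin, which is the reason for listing them. Values are on the log2(TPM + 1) scale, pNE-derived minus aNE-derived. For EGR2 both posterior libraries lay above both pNE libraries in each medium while both anterior libraries lay below both aNE libraries. The anterior side rests on group means under 1 TPM, which cannot be ranked firmly. How many of all genes behave in this way was not counted. The gap between the changes was 1.89 in forebrain, 1.64 in midbrain and 3.30 in hindbrain medium, and this difference was not tested, because EGR2 was chosen for its levels. Between media, the difference of hindbrain from forebrain medium was 1.42 larger for EGR2 in posterior cells, and that of hindbrain from midbrain medium 1.66 larger, with the libraries of the 2 origins on opposite sides. For hindbrain against forebrain medium the anterior side rests on 0.202 against 0.204 TPM, which cannot be ranked firmly. The libraries also lay on opposite sides for ZNF503 in hindbrain against midbrain medium, with 3.98, where the posterior side rests on 152.3 against 151.9 TPM and a difference of 0.17 under its SE of 0.172, and for ZNF703 in hindbrain against forebrain medium, with -1.99. These were not tested either.

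For genes that are not members the difference between the changes was tested as an interaction in limma, with adjusted p-values over all tested genes. HOXB1 had 2.91, 4.20 and 4.18 in forebrain, midbrain and hindbrain medium, HOXA2 had 2.10, 1.83 and 2.27, and HOXB2 had 3.57, 3.79 and 4.12. The limma adjusted p of these 3 genes ran from 1.42e-08 for HOXB1 to 8.90e-05 for HOXA2, both in midbrain medium. EPHA4 had 1.63, 2.32 and 2.58 in the 3 media, the least certain of them at an adjusted p of 0.000223 in forebrain medium. PAX2 had 1.66 in hindbrain medium (adjusted p = 0.000557). The EGR2 relatives EGR1 and EGR3 had 1.67 and 1.28 in midbrain medium (adjusted p = 0.000327 and 0.0169) and 1.82 and 1.35 in hindbrain medium (adjusted p = 0.00015 and 0.0107).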

How the results depend on the processing

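The direction of all 12 origin differences of the 3 genes was the same under every alternative run. Their size depended on the pseudocount where levels were low. With 0.1 in place of 1, EGR2 differed by -1.09 at day 2, 2.79 in forebrain, 2.26 in midbrain and 5.15 in hindbrain medium. ZNF503 then differed by 6.29 at day 2 and 5.89 in forebrain medium, and ZNF703 by 6.67 in forebrain medium. A fit of only the 4 libraries compared called 355 genes in place of 655 at day 2 and 717 in place of 1164 in hindbrain medium. Without the minimum on the log2 difference, calls numbered 2321, 3600, 2834 and 3724 at day 2 and in forebrain, midbrain and hindbrain medium, in place of 655, 1323, 978 and 1164. Leaving out 1 library gave EGR2 differences of -0.61 to -0.31, 1.14 to 1.72, 0.87 to 1.498 and 2.73 to 2.95 in the same order. For ZNF503 these ranges were 5.32 to 5.78, 5.03 to 5.34, -0.49 to -0.38 and 3.37 to 3.72. A fit with the replicate number as a block called 650, 1320, 978 and 1160 genes, and 10, 17, 17 and 19 of the 24 hindbrain genes, the same numbers of the 24 as without it. Another filter and other scalings moved no count by over 1.5 times. With 2 libraries a group and unknown depth, EGR2 levels under 1 TPM cannot be ranked firmly.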
